A study of Mus musculus with 12 samples.

Results

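The nuclear genes of oxidative phosphorylation were followed in whole kidneys of mouse embryos at E18.5. A gene was taken when its symbol begins with Nduf and a letter a, b, c, s or v before a digit, with Uqcr, with Cox4 to Cox8 or with Atp5, or is Sdha, Sdhb, Sdhc or Sdhd, leaving out symbols with -ps. This found 85 of the 36186 entries of the count table: 37 of complex I, 4 of complex II, 8 of complex III, 18 of complex IV and 18 of complex V. Members were placed by symbol, so Ndufa4, which is now regarded as a complex IV subunit, is counted under complex I, and the Atp5s and Atp5sl products, which are not subunits of the enzyme, under complex V. Of the 85, 80 had enough counts to be tested in every comparison. Together the 85 took between 1.51% (AhCk AC110) and 1.80% (AkCk 27) of all counts of a library.

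Oxidative phosphorylation couples the oxidation of fuels to ATP synthesis in the inner mitochondrial membrane. Complexes I and II take electrons from NADH and succinate, complex III passes them to cytochrome c, complex IV hands them to oxygen, and complex V makes ATP from the proton gradient that the others build. Most subunits are encoded in the nucleus, with a few catalytic ones in the mitochondrial genome, and in the kidney the proximal tubule depends heavily on this pathway for reabsorption. Transcripts of the mitochondrial genome were not analysed here.

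The genotypes compared, 4 with 3 libraries each and each library from a separately numbered embryo, were on a mixed 129 and CD1 background. They were wild type (Wt), Hoxa9,10,11-/- HoxC9,10,11+/- (AkCh), Hoxa9,10,11+/- HoxC9,10,11-/- (AhCk) and Hoxa9,10,11-/- HoxC9,10,11-/- (AkCk). The label of the last group gives Hoxa11 as homozygous, whereas the text of the study describes sequenced double mutants that keep at least 1 functional Hoxa11 allele and says that no kidney could be detected at this age when all of these alleles were mutated, and which embryo carries which alleles was not given. The mutations are germ line frameshifts, present in all cells of the embryo, and transcript levels of the targeted genes were not used to check the labels. The 3 AhCk libraries came from 1 sequencing run and the other 9 from another, so the genotype AhCk and its run cannot be told apart in any comparison. Because whole kidneys were used, fewer cells of a type and less RNA per cell cannot be told apart either.

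Total counts per library ranged from 28616877 (AkCh 20) to 47067903 (AhCk AC110). A count of 3 corresponds to between 0.0614 and 0.116 counts scaled to a library total of 1e6 (CPM), and the 80 members tested were all above this in every library. AkCh 20, the shallowest library, stood apart from all others. The proximal tubule markers (14 genes, none at 0) summed to 953 CPM there and to between 2076 and 6191 CPM in the other 11 libraries, while the cap mesenchyme markers (6 genes, none at 0) summed to 475 CPM and elsewhere to between 58.3 and 305 CPM. The comparisons that include the AkCh group are therefore given with and without this library.

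The start sites of these genes are known to share binding sequences for a few activators, among them NRF1, the ETS factor GABP and YY1. RefSeq windows of build GRCm38.p6, from 250 bases before to 50 bases after the start, matched 67 of the 80 tested members with 73 windows. Both strands were searched, and a motif may overlap another. The NRF1 motif, GCGCA followed by any base and GCGC, was found in 24.7% of the members' windows and 8.64% of the 15384 windows of all tested genes. The ETS motif CCGGAAG was found in 21.9% and 15.2%, and the YY1 motif AAGATGGC in 16.4% and 3.80%. At least 1 of the motifs was found in 38 of the 67 members. The stretches below show a motif (capitals) in members of 4 complexes, 2 of which, Ndufa11 and Atp5h, come up again in the comparison of AkCk with AhCk. They run 5′ to 3′ on the gene's strand and lie upstream of the RefSeq start and outside annotated exons. The first is Ndufa11 (chr17:56717686-56717761, plus strand), followed by Ndufs5 (chr4:123718203-123718336), Uqcrh (chr4:116075072-116075220), Cox6a1 (chr5:115348982-115349108) and Atp5h (chr11:115419963-115420069), all on the minus strand.
Ndufa11: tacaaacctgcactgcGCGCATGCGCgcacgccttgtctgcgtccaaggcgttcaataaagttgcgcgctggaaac
Ndufs5: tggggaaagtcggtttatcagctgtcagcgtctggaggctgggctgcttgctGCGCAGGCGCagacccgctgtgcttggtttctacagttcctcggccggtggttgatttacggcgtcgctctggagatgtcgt
Uqcrh: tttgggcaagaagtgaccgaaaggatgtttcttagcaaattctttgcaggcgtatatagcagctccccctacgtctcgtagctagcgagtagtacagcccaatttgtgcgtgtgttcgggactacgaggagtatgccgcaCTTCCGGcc
Cox6a1: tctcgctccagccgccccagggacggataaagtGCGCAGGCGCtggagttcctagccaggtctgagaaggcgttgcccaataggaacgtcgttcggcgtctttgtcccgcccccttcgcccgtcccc
Atp5h: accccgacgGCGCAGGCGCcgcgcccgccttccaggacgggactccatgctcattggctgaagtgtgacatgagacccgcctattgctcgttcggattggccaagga
The capitals are the NRF1 motif in Ndufa11, Ndufs5, Cox6a1 and Atp5h, starting 60, 98, 117 and 141 bases before the start site, and in Uqcrh the ETS motif read on the other strand, starting 10 bases before it. A match says only that these letters are present.

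In wild type kidneys the members spanned a wide range of levels per length, here mean CPM per kilobase of transcript over 3 libraries. Complex V held the highest, Atp5b (the catalytic F1 beta subunit) at 1039 CPM per kilobase and Atp5g3 (a gene for the membrane c-ring) at 792. In complex IV the highest were Cox8a at 632 and Cox4i1 at 590.4, in complex III Uqcrh at 381 and Uqcr10 at 272, in complex I Ndufa4 at 302 and Ndufb8 at 295, and in complex II Sdhd at 189 and Sdhb at 177. The median per complex was 358 for V, 291 for IV, 240 for III, 152 for II and 124 for I.

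Isoforms tied to other tissues were low or absent. Cox6a2 and Cox8b, which belong to heart and skeletal muscle, had 7 and 15 counts over all 12 libraries, and Cox7b2 had 4. Cox8c and the pseudogene Atp5l2 had 0 counts in every library. Of the minor isoforms that were tested, Cox4i2 (a hypoxia-linked form of subunit 4) lay between 5.42 and 11.5 CPM, Cox7a1 (the muscle form) between 3.23 and 6.36 CPM and Cox6b2 between 8.77 and 20.4 CPM. Per length, Cox4i1 exceeded Cox4i2 by 58.4 times in wild type and 48.8 times in AkCk, Cox7a2 exceeded Cox7a1 by 19.8 and 19.3 times, and Cox6b1 exceeded Cox6b2 by 13.5 and 16.2 times. Ndufa4 exceeded its hypoxia-linked relative Ndufa4l2 by 10.3 times in wild type, 8.08 in AhCk and 7.68 in AkCk. None of these minor isoforms passed the threshold in any of the 6 comparisons, the lowest adjusted p of edgeR's quasi-likelihood test among them being 0.101 for Ndufa4l2 in AkCk against wild type. The muscle markers (7 genes of skeletal muscle, none at 0 in every library) summed to at most 14.3 CPM in any library and the brown fat markers Ucp1 and Cidea to at most 0.241 CPM.

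The first question was whether the kidneys with most Hox alleles mutated, AkCk, differ from wild type in this pathway. In AkCk against wild type, 1 of 80 members was higher at an adjusted p under 0.05 and none was lower, where 6.31% of all 15839 genes tested were higher and 7.40% lower. The median log2 fold change of the members was 0.03, beside -0.01 for all genes tested. By complex the medians were 0.07 for I, 0.16 for II, -0.05 for III, 0.01 for IV and -0.00 for V. Members whose groups did not overlap numbered 11 higher, where 17.3% of all genes were, and 3 lower, where 20.8% were. A larger share of all genes than of the members was thus past the threshold or without overlap in each direction.

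The member past the threshold was Atp5d (chr10:80138698-80145828), which encodes the delta subunit of the F1 part of ATP synthase. It stood at 265, 273 and 261 CPM in wild type and at 305, 335 and 326 CPM in AkCk. Every AkCk library was above every library of the other 3 genotypes, which reached at most 288 CPM. The log2 fold change against wild type was 0.27 (SE 0.07, n = 3 against 3, adjusted p = 0.0449 in edgeR). The call was lost in 6 of 12 alternative analyses (adjusted p from 0.00499 to 0.139) and when any library but Wt 30 was left out, with adjusted p up to 0.158, while the log2 fold change stayed between 0.21 and 0.31.

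The 2 large F1 subunits had fold changes of the same size with wider spread. Atp5a1 (alpha) was measured at 1969, 1703 and 1584 CPM in wild type and at 2075, 2183 and 2131 CPM in AkCk, a log2 fold change of 0.28 (SE 0.10, adjusted p = 0.101 in edgeR). Atp5b (beta) was measured at 2355, 1876 and 1739 CPM in wild type and 2400, 2597 and 2326 CPM in AkCk, a log2 fold change of 0.29 (SE 0.13, adjusted p = 0.152 in edgeR). The groups did not overlap for Atp5a1 and overlapped for Atp5b, and neither passed the threshold in the reported analysis. Leaving out 1 library, each passed in 1 of 6 fits (adjusted p = 0.0266 for Atp5a1 and 0.0229 for Atp5b in edgeR). Over the 12 alternatives Atp5a1 passed in 1 and Atp5b in 0. With Xist as a covariate the log2 fold changes were 0.16 and 0.11. Atp5c1 (gamma) and Atp5e (epsilon), the other members of F1, had log2 fold changes of 0.06 and -0.14. Over the 5 F1 genes the median was 0.27, and over the other 12 tested members of complex V it was -0.01.

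Core subunits here are 7 of complex I, the 4 of complex II and the 5 F1 genes of complex V. Uqcrc1, Uqcrc2 and Uqcrfs1 of complex III are also core. The catalytic subunits of complex IV are mitochondrially encoded, so Cox4i1 and Cox5a stand for it here. Outside complex V, Cox4i1, Cox5a and the core subunits given here lay within 0.30 of no change. Their log2 fold changes in AkCk against wild type were -0.01 for Ndufs1, 0.20 for Ndufv1 (which binds NADH), 0.08 for Ndufs7, 0.27 for Sdha (which oxidizes succinate), 0.09 for Sdhb, 0.10 for the Rieske protein Uqcrfs1, 0.21 for Uqcrc1, 0.01 for Cox4i1 and 0.13 for Cox5a. The lowest adjusted p among these 9 in edgeR was 0.143, for Uqcrc1. The extremes of the 80 were Ndufa4l2 at 0.42 (25.3, 28.4 and 28.8 CPM in wild type, 35.1, 45.6 and 29.95 in AkCk, adjusted p = 0.101) and, at the other end, Cox7b at -0.68, Cox6b2 at -0.24 and Atp5j2 (the f subunit of ATP synthase) at -0.17, none of them past the threshold in edgeR. With Xist as a covariate Cox6b2 was at -0.02 and Atp5j2 at 0.03. Stromal markers moved with this comparison. All 6 were higher in AkCk in edgeR, with sums of 8015 to 9912 CPM against 2702 to 2874 CPM in wild type, and 4 of 6 cap mesenchyme markers were lower (58.3 to 169 CPM against 211 to 305 CPM). All 3 macrophage markers (76.3 to 103 CPM against 43.5 to 49.9 CPM) and 3 of 5 podocyte markers (1358 to 1715 CPM against 1111 to 1175 CPM) were higher. The proximal tubule markers had 0 of 14 past the threshold by edgeR (1 at an unadjusted p under 0.05) and summed to 3985 to 6191 CPM against 2076 to 5465 CPM. Their median log2 fold change was 0.57, with 11 of 14 positive. The part of cell composition in the members' levels was not tested.

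**Figure D1:**
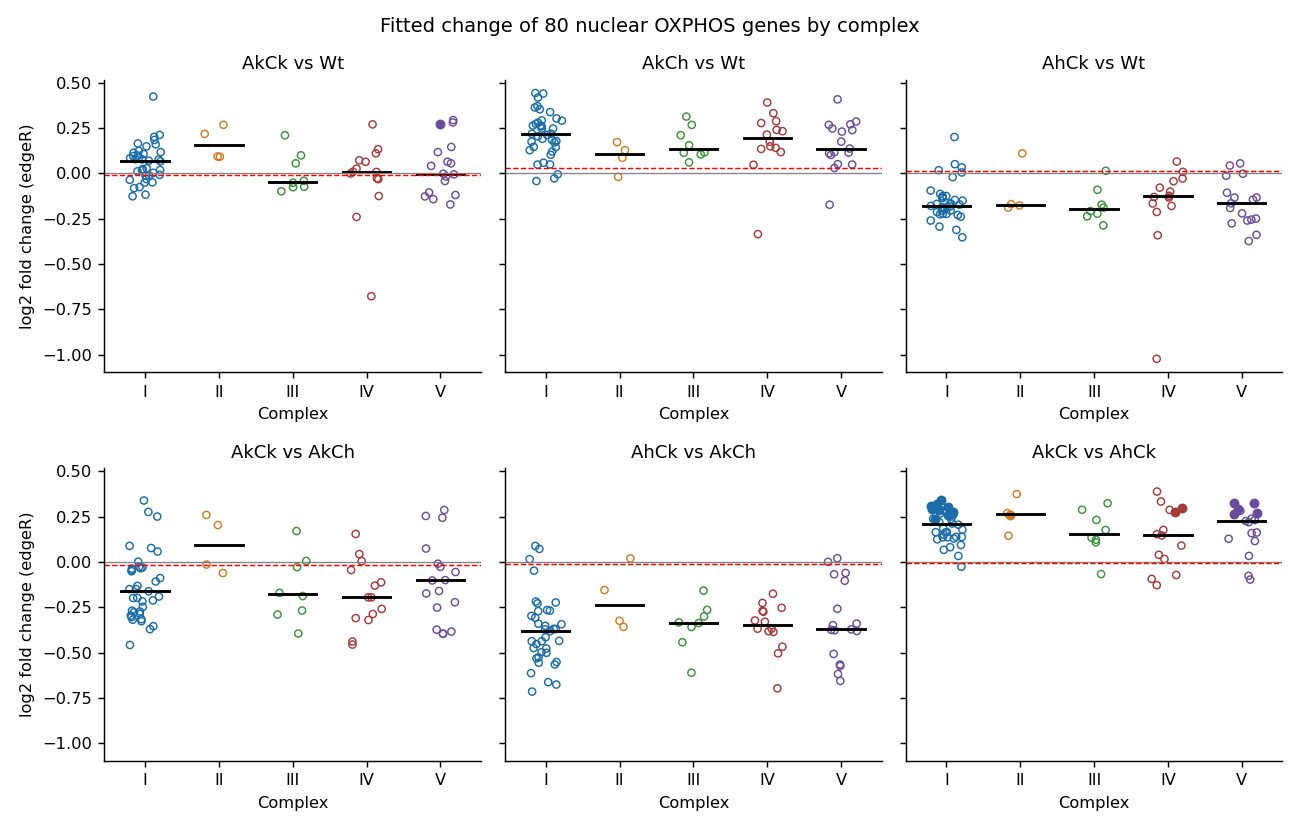
Fitted log2 fold change (y axis) of the 80 tested members by complex (x axis) in the 6 comparisons; filled points are past an adjusted p of 0.05, black bars are medians per complex and the red dashed line is the median of all genes tested. 1 point is filled in AkCk against wild type (Atp5d) and 17 are filled in AkCk against AhCk, and the low point of complex IV in the wild type comparisons is Cox7b.

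AhCk kidneys, which keep 1 Hoxa9,10,11 allele and lack HoxC9,10,11 function, had the lowest median level of these genes. Against wild type, 69 of 80 members had a negative log2 fold change, with a median of -0.17 beside 0.01 for all 15902 genes tested. No member passed an adjusted p of 0.05 in edgeR, where 1.53% of all genes were lower. At an unadjusted p under 0.05, 34 members were lower and none higher, where 11.2% of all genes were lower. Without Wt 37, Wt 55 or AhCk AC110 the members at that level numbered 13, 22 and 14 of 80, where 12.8%, 14.2% and 13.9% of all genes were in either direction. With length correction alone they numbered 11 where 18.8% of all genes were, and with all 12 libraries in the fit 5 where 11.1% were, so that in both fits the members' share was below that of all genes. For 44 of 80 members all 3 AhCk libraries were below all 3 wild type libraries, where 15.3% of all genes were. DESeq2 called 10 of 83 members lower, where it called 3.71% of 19746 genes lower, and limma on the authors' log2 values called none. The medians by complex were close to one another, at -0.18 for I, -0.17 for II, -0.20 for III, -0.13 for IV and -0.17 for V.

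The lowest adjusted p in edgeR was that of Ndufv2, an iron-sulphur subunit of the NADH-oxidizing part of complex I. It was at 165, 174 and 172 CPM in wild type and 138, 132 and 139 CPM in AhCk, without overlap (log2 fold change -0.31, adjusted p = 0.0551 in edgeR). The most negative fold changes were those of Cox7b at -1.02, Atp5e at -0.37 and Ndufs5 at -0.35. At the other end were Ndufa4l2 at 0.20, Sdha at 0.11 and Cox7a1 at 0.06, none of them past the threshold. Over the 19 core subunits the median was -0.11 and over the other 61 members -0.17, a difference that was not tested and that was not in the same direction in every library: the core and other medians were 0.01 and -0.17 in AhCk AC38, -0.18 and -0.25 in AhCk AC110, and -0.20 and -0.13 in AhCk AC115. The longest transcripts of the pathway are those of core subunits, and the core class holds no member of complex IV. Role, complex and length therefore go together here. Cell type markers moved with this comparison as well. In edgeR 3 of 6 stromal markers were higher in AhCk (sums of 3614 to 4921 CPM against 2702 to 2874 CPM) and none of 6 cap mesenchyme and 5 podocyte markers passed, with 3 of each at an unadjusted p under 0.05 and medians of -0.31 and 0.23. None of 14 proximal tubule markers had an unadjusted p under 0.05. The 6 erythroid markers, with a median of 1.22, did not pass either (1 at an unadjusted p under 0.05) and summed to 534, 1807 and 5857 CPM in AhCk against 550 to 1379 CPM in wild type. The part of these cell types in the members' levels was not tested.

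AkCk against AhCk was the comparison with most members past the threshold. Of 80 members, 17 were higher in AkCk and none lower in edgeR, where 7.63% of all 15889 genes tested were higher. Groups did not overlap for 53 members, all higher in AkCk, where 19.9% of all genes were higher without overlap. The median log2 fold change was 0.21, beside -0.00 for all genes, and by complex 0.21 for I, 0.26 for II, 0.16 for III, 0.15 for IV and 0.23 for V. The 17 had log2 fold changes between 0.24 and 0.34 and adjusted p between 0.0113 and 0.0470.

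In complex I, 9 members were past the threshold. Ndufb5 (chr3:32737057-32751559), an accessory subunit of the membrane arm, had the lowest adjusted p. It was at 145, 144 and 145 CPM in AkCk, 114.8, 111.5 and 110.4 CPM in AhCk and 128, 132 and 127 CPM in wild type. The wild type libraries thus lay between the mutants, and the log2 fold change of AkCk against AhCk was 0.34 (SE 0.06, adjusted p = 0.0113 in edgeR). The core subunit Ndufv2 had a log2 fold change of 0.29, and the accessory subunits Ndufc2 of 0.32, Ndufa9 of 0.31, Ndufc1 of 0.30, Ndufa12 of 0.29, Ndufb9 of 0.28, the X-linked Ndufb11 of 0.26 and Ndufa11 of 0.24.

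In complex II the membrane anchor Sdhc was higher, by 0.26 on the log2 scale, and in complex III no member passed (Uqcrfs1 at 0.32 had an adjusted p of 0.0515 in edgeR). In complex IV the members past the threshold were Cox7a2, the common isoform of subunit 7a, at 0.30, and Cox7a2l, which is known for joining complexes III and IV, at 0.27. Cox7a2l (chr17:83501917-83514333) was at 257, 252 and 259.6 CPM in AkCk and 207, 208 and 210.4 CPM in AhCk, with no overlap and little spread within either group. The wild type libraries, at 223, 255 and 253 CPM, were all above AhCk and overlapped with AkCk.

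In complex V, 5 members were higher: Atp5d at 0.26 and Atp5c1 at 0.27 from F1, Atp5h and Atp5o from the stalk that holds F1 in place at 0.33 and 0.29, and Atp5g3 from the c-ring at 0.32. Atp5h (chr11:115415691-115419919) was at 237, 235 and 232 CPM in AkCk and 182, 175 and 197 CPM in AhCk. Its wild type libraries, at 223, 242 and 240.4 CPM, enclosed the AkCk values and lay above the AhCk ones. The other c-ring genes, Atp5g1 and Atp5g2, whose mature proteins are the same as that of Atp5g3, had log2 fold changes of 0.24 and 0.23 with adjusted p of 0.0626 and 0.0815 in edgeR. The highest fold changes not past the threshold were those of Cox4i2 at 0.39 and Sdhd at 0.37, and the lowest were Cox6b2 at -0.13, Atp5k at -0.10 and Cox7c at -0.09.

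The call count in this comparison rested on single libraries and on scaling. Without AhCk AC110 or without AkCk 24 it was 0 of 80, where 1.94% and 2.77% of all genes were higher. Without AhCk AC115 it was 4 where 4.56% were, without AkCk 29 it was 5 where 5.23% were, without AkCk 27 it was 7 where 4.94% were and without AhCk AC38 it was 22 where 10.5% were. The shares of members without AhCk AC115 or AkCk 29 were thus near those of all genes, while the median stayed between 0.17 and 0.23. Stromal markers differed here too, with all 6 higher in AkCk by edgeR (8015 to 9912 CPM against 3614 to 4921 CPM in AhCk), along with 2 of 3 macrophage and 1 of 5 podocyte markers, while 1 of 6 cap mesenchyme markers was lower. None of the 14 proximal tubule and 2 loop of Henle markers passed in edgeR (3 and 1 at an unadjusted p under 0.05), and their medians were 0.36 and 0.56. The part of these cell types was not tested.

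**Figure D2:**
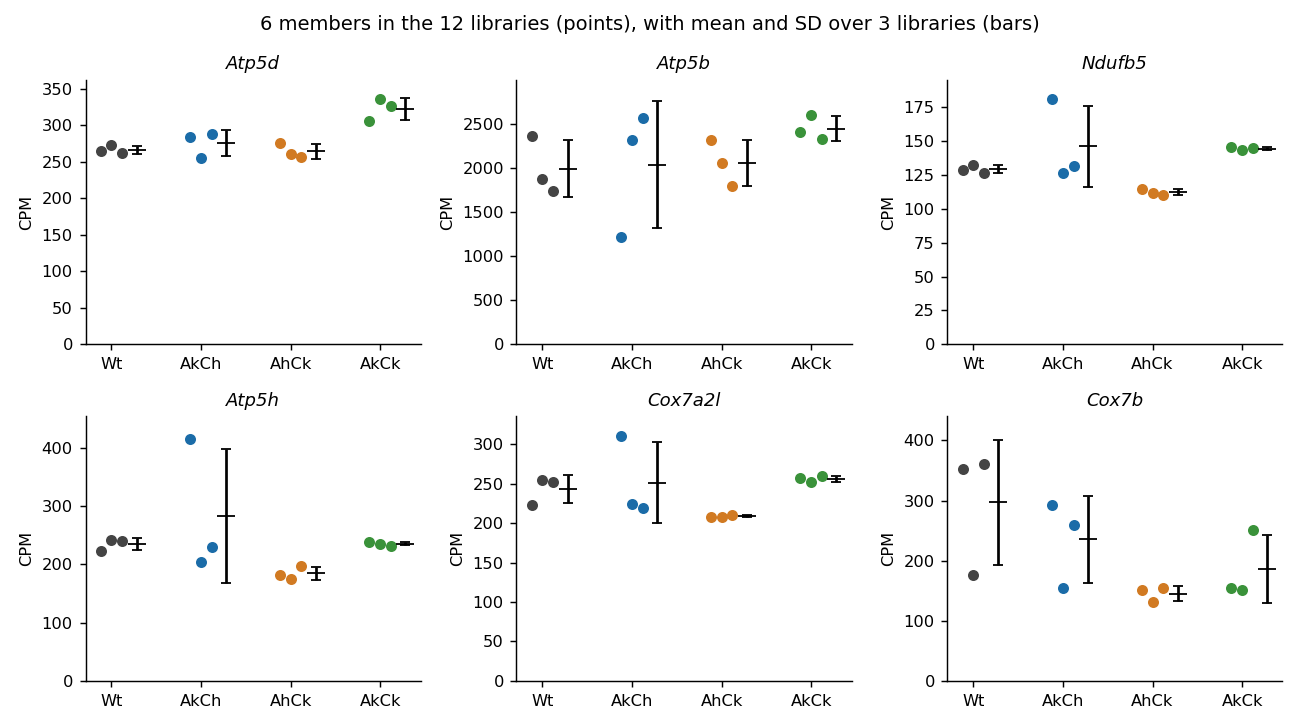
CPM (y axis, from 0) of 6 members in the 12 libraries, grouped by genotype (x axis); points are libraries and bars are the mean and SD over 3 libraries. Atp5d is highest in the 3 AkCk libraries, Ndufb5, Atp5h and Cox7a2l are lowest in AhCk, and Cox7b differs between libraries of the same genotype.

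Transcript length moved with these differences, though not alike in every library. Across the members, Spearman's rho between length and deviation from the mean of all 12 libraries was 0.37 in AhCk AC38, 0.25 in AC110 and -0.38 in AC115. Over all genes it was 0.28, 0.35 and 0.17. That mean includes every genotype, so these rho values do not describe AhCk against wild type alone. The reference transcripts of the tested members had a median of 731.5 bases, against 2758 bases for the genes tested in AkCk against AhCk, and in AhCk against wild type short genes outside the pathway were also lower. Below 600 bases the median log2 fold change was -0.17 for 27 members and -0.17 for 228 other genes. From 600 to under 1000 bases it was -0.18 for 28 members and -0.12 for 870 others, from 1000 to under 1500 bases -0.19 for 12 members and -0.08 for 1569 others, and from 1500 bases -0.09 for 13 members and 0.04 for 12253 others. The members were thus level with other genes in the shortest class and lower than them in the 3 longer ones. After a per-library correction for length alone, chosen after the data were seen, the members' median in AhCk against wild type was -0.03, and after a correction for GC content alone it was -0.20.

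In AkCk against AhCk the members were above the other genes in every class. The medians were 0.15 against 0.08 below 600 bases, 0.23 against 0.10 from 600 to under 1000, 0.27 against 0.08 from 1000 to under 1500, and 0.22 against -0.02 from 1500 bases on. The length correction alone left a median of 0.13 with 4 members higher in edgeR, Ndufb5 among them, where 7.77% of all genes were. The GC correction alone gave 0.25 with 22 members, where 7.38% were. Whether length or genotype underlies these differences was not tested.

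**Figure D3:**
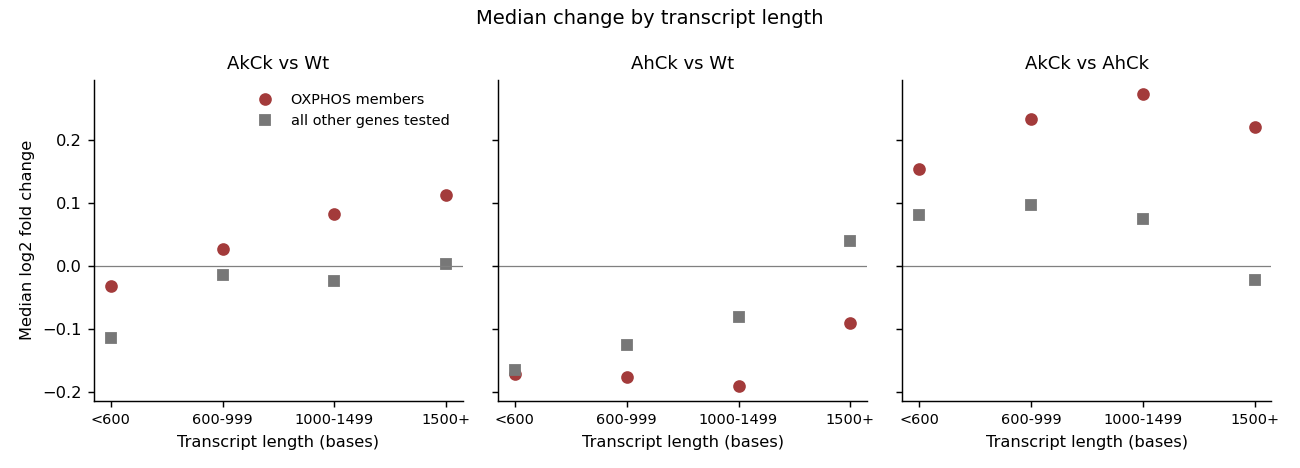
Median log2 fold change (y axis) of members (circles) and of all other genes tested (squares) in 4 classes of transcript length (x axis, bases), for 3 comparisons. In AhCk against wild type the symbols nearly coincide below 600 bases at -0.17 and part in the longer classes; in AkCk against AhCk the members lie above the other genes in all 4 classes.

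AkCh kidneys, which lack Hoxa9,10,11 function and keep 1 HoxC9,10,11 allele, gave no member past the threshold against wild type in edgeR, DESeq2 or limma, and none at an unadjusted p under 0.05 in edgeR. Of all 15789 genes 0.00% passed the threshold and 2.28% had an unadjusted p under 0.05. The median log2 fold change was 0.18, with 74 of 80 members positive, beside 0.03 for all genes. Without AkCh 20 the median was -0.07, with length correction alone it was 0.07, with library size only 0.09 and with Xist as a covariate 0.34. With Xist as a covariate 44 members had an unadjusted p under 0.05, where 11.9% of all genes did, and none passed the threshold. Xist was at most 0.138 CPM in wild type and 0.0386 CPM in AkCh 20, but 190 and 253 CPM in AkCh 31 and AkCh 33. Within AkCh, Xist and AkCh 20 thus cannot be told apart, so the fit with Xist is not independent of that library. The highest fold changes were those of Ndufa5 at 0.44, Ndufc2 at 0.44 and Ndufa3 at 0.42, and the lowest were Cox7b at -0.34 and Atp5sl at -0.17. Without AkCh 20 these values were -0.19 for Ndufa5, -0.02 for Ndufc2, -0.07 for Ndufa3, -0.53 for Cox7b and -0.20 for Atp5sl, so that the 3 highest changed sign. In that fit 4 members had an unadjusted p under 0.05, where 11.4% of all genes did. With AkCh 20, 3 of 6 stromal markers had an unadjusted p under 0.05 in edgeR (median 0.49). None of 6 cap mesenchyme and 14 proximal tubule markers did, and no marker of these lists passed the threshold. The part of these cell types was not tested.

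AkCh 20 had an unequal pattern across the pathway. Ndufa5, a short accessory subunit of complex I (chr6:24518662-24527690), was at 122 CPM there and 45.6 and 46.9 CPM in the other AkCh libraries, whereas Atp5b (chr10:128083307-128090388) was at 1213 CPM there and 2312 and 2567 CPM in the others. Ndufs1, Sdhd and Sdha followed Atp5b, at 120.1, 146 and 274 CPM against 227 and 243, 254 and 286, and 432 and 456 CPM. Against the mean of the other 2 libraries, 68 of 80 members were higher in AkCh 20, with a median log2 ratio of 0.58. The ratio was lowest for Atp5b at -1.01, Ndufs1 at -0.96, Sdhd at -0.89, Sdha at -0.69 and Atp5a1 at -0.60, and highest for Ndufa5 at 1.39, Cox6c at 1.23 and Atp5e at 1.20. Of the 61 accessory and other subunits 59 were higher, and of the 19 core and catalytic subunits 9 were.

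The pattern followed length in the members and outside them. The median log2 ratio fell across the 4 length classes, at 0.90, 0.63, 0.27 and -0.24 for members and at 0.88, 0.62, 0.44 and -0.09 for all genes tested in every comparison. Spearman's rho between the ratio and length was -0.66 across the 80 members and -0.44 across 14691 genes, as a description of 3 libraries, since genes are not replicates. Within the core subunits alone it was -0.74 and within the others -0.45. Sdhc, the longest at 3171 bases, was higher in AkCh 20 and went against this order. The summed level of complex I was 5406 CPM in AkCh 20 and at most 4228 CPM elsewhere, and that of complex II was 911 CPM, within the range of the other libraries (854 to 1211 CPM).

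**Figure D4:**
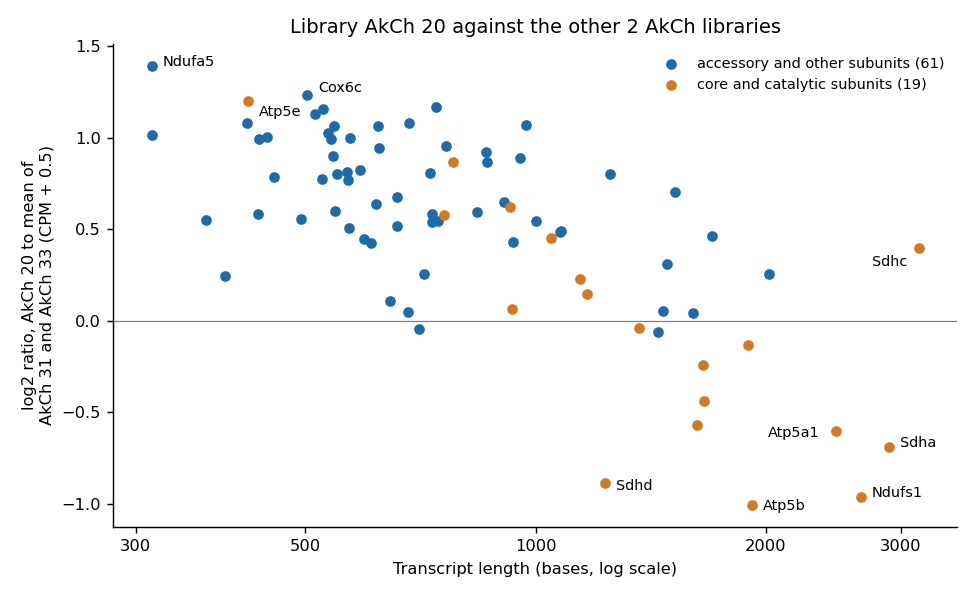
log2 ratio of CPM in library AkCh 20 to the mean of the other AkCh libraries (y axis, pseudocount 0.5) against transcript length (x axis, log scale) for the 80 tested members, coloured by class. Of the 61 accessory and other subunits 59 lie above 0, and the long core subunits Atp5b, Ndufs1, Sdha and Atp5a1 lie below it.

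Both remaining comparisons involve AkCh and changed with this library. In AkCk against AkCh no member passed in edgeR, DESeq2 or limma, none had an unadjusted p under 0.05 in edgeR, while 0.00% of all genes passed and 11.3% had an unadjusted p under 0.05. The median was -0.15 with AkCh 20 and 0.08 without it, -0.28 without AkCh 31, and -0.01 with length correction alone. Without AkCh 20, 687 of 15986 genes passed in edgeR and no member did, and 14 members had an unadjusted p under 0.05, where 23.4% of all genes did. The extremes were Ndufa4l2 at 0.34 and Atp5b at 0.29, and Ndufa5 at -0.46, Cox6b2 at -0.45 and Cox7c at -0.44. Without AkCh 20 these values were 0.50 for Ndufa4l2, 0.02 for Atp5b, 0.18 for Ndufa5, -0.02 for Cox6b2 and -0.02 for Cox7c. With AkCh 20, all 6 stromal markers (median 1.34), 5 of 6 cap mesenchyme (-1.44) and all 3 macrophage markers had an unadjusted p under 0.05. None of these markers passed in edgeR, and 0 of 14 proximal tubule markers had an unadjusted p under 0.05 (median 0.40). The part of these cell types was not tested.

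In AhCk against AkCh no member passed in edgeR, DESeq2 or limma, where 0.126% of all genes were lower, and 14 members had an unadjusted p under 0.05 in edgeR, all lower, where 5.56% of all genes were lower at that level. Without AkCh 20 they numbered 23, where 18.7% of all genes were at that level in either direction, and without AkCh 31 they numbered 30, where 9.28% were. They numbered 6 without AkCh 33 (9.25% of all genes), 7 without AhCk AC38 (7.11%), and 0 without AhCk AC110 (4.34%) or AC115 (4.42%). With all 12 libraries in the fit they numbered 41 (17.9%) and with Xist as a covariate 60 (26.5%). In the fit with Xist 12 members also passed the threshold, all lower, where 3.67% of all genes were lower. Of the AkCh libraries only AkCh 20 was without Xist (0.0386 CPM), so Xist and that library cannot be told apart within this group. The median was -0.36 with AkCh 20 and -0.13 without it. The lowest fold changes were those of Ndufs5 at -0.71, Cox7b at -0.70 and Ndufc2 at -0.68, and the highest were Ndufa4l2 at 0.09, Ndufv1 at 0.07 and Atp5b at 0.02. Without AkCh 20 these were -0.40 for Ndufs5, -0.50 for Cox7b, -0.21 for Ndufc2, 0.25 for Ndufa4l2, -0.06 for Ndufv1 and -0.24 for Atp5b. With AkCh 20, none of 6 stromal, 6 cap mesenchyme and 5 podocyte markers had an unadjusted p under 0.05 in edgeR. Their medians were 0.04, -0.50 and 0.36.

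**Figure D5:**
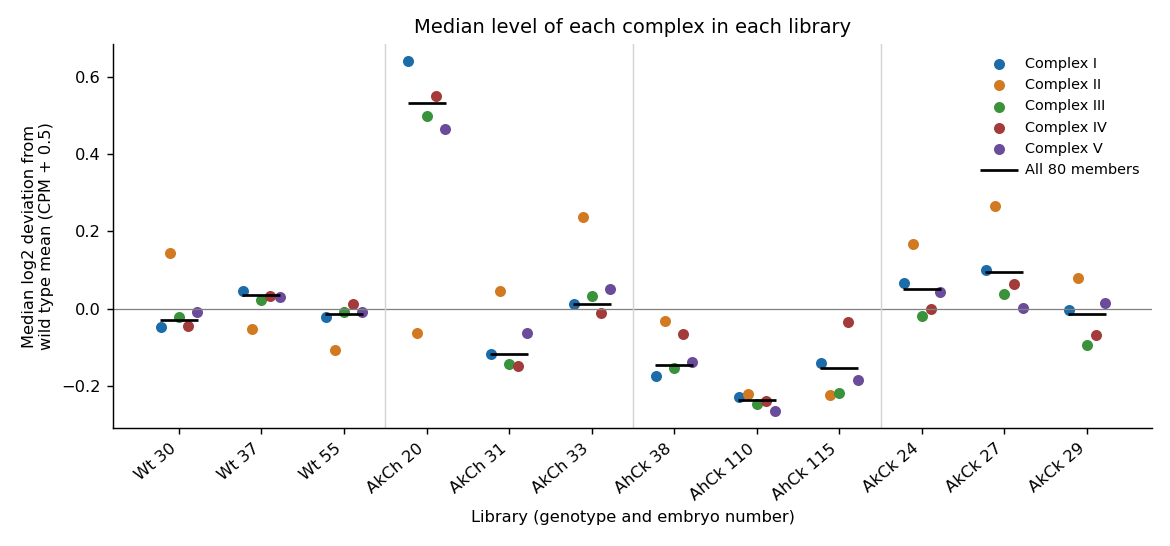
Median log2 deviation of the members of each complex from the wild type mean (y axis, CPM with a pseudocount of 0.5) in the 12 libraries (x axis); coloured points are complexes I to V and black bars are all 80 tested members. AhCk libraries are marked without the letters AC. The bars of the 3 AhCk libraries lie at -0.15, -0.23 and -0.15, below every other library, and that of AkCh 20 lies at 0.53 with complex II apart from the rest at -0.06.

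Cox7b, an X-linked accessory subunit of complex IV (chrX:106015700-106022450), differed widely between libraries of the same genotype. It was at 353, 177 and 362 CPM in wild type, 292, 154 and 259 CPM in AkCh, 151, 131 and 154 CPM in AhCk, and 154, 152 and 252 CPM in AkCk. The 12 libraries fell into 5 between 252 and 362 CPM and 7 between 131 and 177 CPM, and each genotype but AhCk had libraries in both ranges. AhCk lay below wild type without overlap, with a log2 fold change of -1.02 (SE 0.25) that missed the threshold in edgeR (adjusted p = 0.0861). It passed in DESeq2 (adjusted p = 0.000499) and, in edgeR, without Wt 37 (adjusted p = 0.00804). Over the alternatives the adjusted p ran from 0.000499 to 0.332.

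The other X-linked members did not share this pattern. Ndufb11 was at 162, 178 and 169 CPM in wild type and 146, 138 and 156 CPM in AhCk, and Ndufa1, which helps to assemble complex I, was at 42.4, 44.4 and 46.4 CPM in wild type and 39.8, 38.6 and 42.2 CPM in AhCk. Xist, the transcript of the inactive X chromosome, was between 60.1 and 336 CPM in AkCh 31, AkCh 33, AhCk AC110, AkCk 27 and AkCk 29 and at most 0.138 CPM in the other 7 libraries. Cox7b was at 154, 259, 131, 152 and 252 CPM in the 5 libraries with Xist, so both of its ranges occurred among them. None of its 75-base stretches matched an annotated pseudogene.

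For some members, counts depend on how reads shared with a pseudogene were treated. Of the 84 members with a reference transcript, 23 shared 75-base stretches with an annotated pseudogene, and 14 shared over 10% of them. The share was 63.4% for Atp5l, 59.6% for Atp5g1, 55.9% for Atp5g2, 46.3% for Ndufa12 and 40.3% for Atp5h, and since reads with more than 1 position had been removed, the levels of these genes are uncertain. In AkCk against AhCk the median was 0.20 over the 14 and 0.21 over the other 66 tested members. It was -0.24 and -0.17 in AhCk against wild type, 0.00 and 0.06 in AkCk against wild type, 0.26 and 0.17 in AkCh against wild type, -0.23 and -0.14 in AkCk against AkCh, and -0.50 and -0.35 in AhCk against AkCh.

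Genes that work beside the complexes were read from fixed lists. Of 8 tested genes for cytochrome c and carriers, 3 were higher in AkCk than in AhCk, where 7.63% of all genes were, and 1 was lower in AhCk than in wild type, where 1.53% were, in edgeR. Cytochrome c itself, Cycs, was at 235, 235 and 245 CPM in wild type, 181, 174 and 175 CPM in AhCk and 236, 228 and 213 CPM in AkCk. It fell in AhCk against wild type (log2 fold change -0.42, SE 0.06, adjusted p = 0.0231) and was higher in AkCk than in AhCk (0.33, adjusted p = 0.0195), both in edgeR, along with Ndufab1, the mitochondrial acyl carrier protein, at 0.25 and the ATP/ADP carrier Slc25a5 at 0.37.

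Of 17 TCA cycle genes, 1 was higher in AkCk than in wild type in edgeR, a share close to the 6.31% of all genes: Cs, citrate synthase, at 353, 331 and 344 CPM in wild type and 409, 416 and 407 CPM in AkCk (log2 fold change 0.26, adjusted p = 0.0459). Idh3a, a subunit of isocitrate dehydrogenase, was the 1 lower in AhCk than in wild type, where 1.53% of all genes were. It went from 192, 179.9 and 180.3 CPM to 149, 133 and 126 CPM (-0.43, adjusted p = 0.0473 in edgeR). Cs and Idh3a were the 2 of 17 higher in AkCk than in AhCk, at 0.28 and 0.43, where 7.63% of all genes were higher. The list's medians were 0.10 in AkCk against wild type, -0.04 in AhCk against wild type and 0.20 in AkCk against AhCk.

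Assembly factors had no member of 40 past the threshold against wild type in edgeR in AkCk (2 at an unadjusted p under 0.05) or in AhCk (6), with medians of 0.04 and -0.09. At that unadjusted level were 32.4% of all genes in AkCk and 21.1% in AhCk, so both shares of the list were below those of all genes. In AkCk against AhCk 3 were higher, a share close to the 7.63% of all genes: Sdhaf2 at 0.26, Tmem70 at 0.43 and Acad9 at 0.38. Of 18 regulators of mitochondrial genes, 2 were lower in AkCk than in wild type, where 7.40% of all genes were. They were Pprc1, a relative of the coactivator PGC-1alpha, at -0.43 (58.5, 56.9 and 64.2 CPM in wild type, 43.8, 42.2 and 47.2 CPM in AkCk, adjusted p = 0.0165 in edgeR), and Ssbp1, which binds single-stranded mitochondrial DNA, at -0.47. In AkCk against AhCk 1 regulator was higher and 3 were lower, where 11.4% of all genes were lower. The lower ones were Pprc1 at -0.63, Ppargc1b at -0.96 and the mitochondrial RNA polymerase Polrmt at -0.38.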

How the data were processed

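The authors extracted RNA with RNeasy, made TruSeq libraries, sequenced paired 75-base reads, aligned them to mm10 and removed reads with more than 1 position in Strand NGS (the aligner is not given in the sources used here). They deposited expected counts per gene, and normalized values that the authors put on a log2 scale centred on each gene's median over the 12 libraries. Per-sample columns not used numbered 0.

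After rounding of the expected counts, each comparison was fitted in R 4.3.3 by edgeR 4.0.16 (TMM, filterByExpr with a minimum count of 10 and total of 15, quasi-likelihood test, the 6 libraries compared, Benjamini-Hochberg adjustment over all genes, threshold 0.05). CPM use TMM factors over 12 libraries. The labels give embryo numbers but no litters, so p-values measure the spread between these libraries, and counting floors (3 counts) cover counting error only. Of entries sharing a symbol (92 symbols), the one with most counts kept it. Positions came from RefSeq GRCm38.p6 by Entrez identifier. Length and GC came from GENCODE M21 transcripts with a RefSeq match (the lower median length), for 94.49% of tested genes. In simulated data for AkCk against wild type (15704 genes), 88 of 100 genes changed by 1 on the log2 scale and 99 of 100 changed by 2 were called, with 9 false among 196 calls.

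Named genes were those past the threshold in any comparison and the 3 highest and 3 lowest fold changes per comparison. Also named were the 2 highest per complex by CPM per kilobase, a fixed set of core subunits with Cox4i1 and Cox5a, and isoform partners. X-linked members and up to 3 genes with the lowest p in each list were named too. Genes added to these after their values were seen are Cox6c and the other extremes of AkCh 20, Atp5l, and members near the threshold. A member that the rule also names is not reported here. Members and lists were chosen with earlier results of these data known. The alternatives tried were scaling by RLE or by library size only, the test of DESeq2 1.42.0, every gene with at least 1 count, all 12 libraries, the 9 libraries of 1 run, Xist as a covariate, limma 3.58.1 on the deposited log2 values, correction for GC and length in 20 bins, adding -ps entries, leaving out each library, and, added after seeing the data, the length and GC corrections alone. Plots used matplotlib 3.10.9.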

Additional observations from a re-analysis of the deposited data

How the results depend on the processing

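No paired analysis was possible because embryo numbers are not shared between genotypes. Members past the threshold in AkCk against wild type numbered 1 in the reported analysis, 3 in DESeq2, and 0 with library size only, with every gene with at least 1 count, with all 12 libraries, with Xist as a covariate, with the 9 libraries of 1 run, and with GC and length correction (0 to 5 leaving out 1 library). Of all genes 8.65% were higher in DESeq2 and 12.2% without Wt 30, the fit with 5 members. In the listed fits with 0 members, between 1.99% and 7.05% of all genes were higher. The median was -0.027 with library size only and 0.17 with Xist. In AhCk against wild type DESeq2 called 10 (0 to 2 leaving out 1 library), and the median was -0.083 with Xist, -0.0397 with GC and length correction and -0.0298 with length correction alone. Lower in DESeq2 were 3.71% of all genes, and without Wt 30, the fit with 2 members, 2.06%. In AhCk against AkCh, Xist, low in AkCh 20 alone of its group, gave 12 calls, all lower. Of all genes 3.67% were lower in that fit. The median there was -0.0843 with GC and length correction and -0.0924 with length correction alone. In AkCk against AhCk the 17 calls became 4 with library size only, 29 in DESeq2, 11 with every gene, 5 with all 12 libraries, 9 with Xist, 3 with GC and length correction and 4 with length correction alone (0 to 22 leaving out 1 library). The shares of all genes higher in these fits were 5.56%, 9.18%, 5.64%, 5.08%, 6.09%, 6.94% and 7.77%, so that the members' share was below that of all genes with library size only and with both corrections. The median there was 0.15 with library size only, 0.27 with Xist, and 0.13 with either correction that includes length. The causes were not tested. In AkCh against wild type the median ran from -0.0668 to 0.31 leaving out 1 library. Ndufa5, Ndufc2 and Ndufa3 changed sign in AkCh against wild type without AkCh 20. Leaving out 1 library, Ndufa5 ran from -0.19 to 0.68 in AkCh against wild type and from -0.70 to 0.18 in AkCk against AkCh. Adding -ps entries, which have no counts, changed nothing. Counts of all genes past the threshold also moved by over 1.5 times, from 376 to 1265 in DESeq2 for AhCk against wild type and from 2171 to 690 with the 9 libraries of 1 run for AkCk against wild type. With 3 libraries per genotype, a missed threshold does not show that levels were alike, and differences near 0.2 on the log2 scale are below the sizes simulated here.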

Other observations

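Further lists were read in the same fits. Of 75 tested genes of the mitochondrial ribosome, which translates the mitochondrial genome, 1 was higher and 1 lower in AkCk than in wild type in edgeR, with a median log2 fold change of -0.04. Both shares were below those of all genes, at 6.31% higher and 7.40% lower. Mrps10 was the higher one at 0.41 (adjusted p = 0.0247). In AhCk against wild type none passed in edgeR, 22 had an unadjusted p under 0.05, where 21.1% of all genes did, and the median was -0.14. In AkCk against AhCk 7 were higher and 1 lower, where 7.63% of all genes were higher and 11.4% lower, with a median of 0.08. Mrps10 was at 0.59 and Mrpl39, the lower one, at -0.35.

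Of 79 tested entries of the cytosolic ribosome, another group of short and highly transcribed genes, none was higher and 1 lower in AkCk than in wild type in edgeR, and the median was -0.14. Among all genes 6.31% were higher and 7.40% lower there. In AhCk against wild type 1 was higher and none lower, where 0.836% of all genes were higher and 1.53% lower. In that comparison 49 had an unadjusted p under 0.05 against the same 21.1% of all genes, and the median was -0.27. The summed level was 105989 CPM in AkCh 20 and between 47571 and 64256 CPM in the other 11 libraries. None of 15 glycolytic genes passed in edgeR in AkCk or AhCk against wild type (3 and 1 at an unadjusted p under 0.05), with medians of 0.12 and 0.01. Shares of all genes at that unadjusted level were 32.4% in AkCk and 21.1% in AhCk.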
